A study of Mus musculus with 20 samples.

Results

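Corticothalamic neurons are projection neurons of cortical layer 6 whose axons end in the thalamus. The abundance of 7 genes used as their markers, Tle4, Foxp2, Zfpm2, Sla, Hs3st4, Nxph4 and Syt6, was followed through libraries of another cortical cell type. The members were taken by symbol from a table of 55487 genes. All 7 were found and all 7 had enough counts to be tested in every comparison. The libraries hold RNA of mouse subcerebral projection neurons at postnatal day 1, whose axons leave the cortex for the brainstem and spinal cord. Each of 4 groups had 5 libraries: cell bodies (somata) of wild-type (WT) neurons, somata labelled as a knockout (KO) of Bcl11b, growth cones of WT neurons, and growth cones labelled KO. Somata came from cortex, and growth cones, the motile tips of growing axons, came from brainstem and spinal cord. Beyond genotype, tissue, cell type and stage the labels give no allele, strain, Cre driver, sorting marker or number of animals per library. They do not say that libraries of a group came from separate animals, so the p-values measure the spread between these libraries, which may be technical.

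Libraries carry experiment numbers, which name them below: 7 to 11 in both growth cone groups, 12, 14, 22, 25 and 26 in WT somata, and 14, 15, 22, 25 and 26 in somata labelled KO. The labels do not say what an experiment number stands for. Total counts were 18962308 to 36059112 in WT somata, 35243688 to 51205154 in somata labelled KO, between 26382991 and 29323028 in WT growth cones, and between 21657575 and 27723067 in the growth cones labelled KO. Bcl11b, the targeted gene and a zinc-finger transcription factor of deep-layer neurons, did not bear the labels out. It ranged from 494 to 779.8 CPM (gene counts scaled to the library total) in WT somata and from 1023 to 1151 CPM under the KO label (log2 fold change 0.71 ± 0.12 SE, adjusted p = 0.0153, edgeR). In growth cones its ranges overlapped, at 76.4 to 131 CPM in WT and 67.1 to 144 CPM under the KO label. A count over a whole gene does not resolve exons. Groups are therefore called by their labels, and every direction given for KO rests on those labels.

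The 7 genes have different roles. Tle4 is a corepressor of the Groucho family, which is brought to DNA by transcription factors. Foxp2 is a forkhead transcription factor, and Zfpm2, also called Fog2, is a zinc-finger cofactor of GATA factors. Sla is a Src-like adaptor protein, best known for dampening receptor signalling in lymphocytes. Hs3st4 is a 3-O-sulfotransferase that modifies heparan sulfate chains, which sit on cell surface and matrix proteins and bind many guidance and growth factors. Nxph4 belongs to the neurexophilins, secreted glycoproteins of a family known for binding alpha-neurexins, and Syt6 is a synaptotagmin, a membrane trafficking protein. In the developing cortex, corticothalamic and subcerebral neurons are both deep-layer cells that arise in overlapping periods, and transcription factors that repress one another's programmes are known to help set them apart.

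Positions are given as in the deposited table, on mouse build GRCm38. Tle4 (ENSMUSG00000024642.17) lies on chromosome 19 (minus strand) at 14448150 to 14598051, Foxp2 (ENSMUSG00000029563.16) on chromosome 6 (plus strand) at 14901349 to 15441977, and Zfpm2 (ENSMUSG00000022306.9) on chromosome 15 (plus strand) at 40655035 to 41104592. Sla (ENSMUSG00000022372.14) lies on chromosome 15 (minus strand) at 66780819 to 66831829, inside the span of the thyroglobulin gene Tg on the other strand. The exons of Sla and Tg share 0 bases, and Tg held 75 counts over the 20 libraries against 263585 for Sla. Hs3st4 (ENSMUSG00000078591.1) lies on chromosome 7 (plus strand) at 123982869 to 124398989, Nxph4 (ENSMUSG00000040258.6) on chromosome 10 (minus strand) at 127525473 to 127534559, and Syt6 (ENSMUSG00000027849.19) on chromosome 3 (plus strand) at 103575231 to 103645569. Syt6 shares 505 exon bases with the opposite-strand pseudogene Atg4a-ps, which held 25 counts against 20423. Hs3st4 shares 130 exon bases with the opposite-strand transcript Gm27040, which held 2822 counts against 26533. Use of strand in counting is not stated, so reads of the 2 transcripts in those bases cannot be told apart.

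Tle4 and Hs3st4, which passed the test in somata, have a RefSeq promoter sequence in the reference used here, and these are shown because both genes rose there. Each is the 250 bases before a RefSeq start site on GRCm38.p6, on the gene's own strand and 5′ to 3′, with every CG dinucleotide in capitals. The Tle4 window is chr19:14598184-14598433 (minus strand), upstream of the start site that lies 132 bases outside the gene span in the table. The Hs3st4 window is chr7:123982578-123982827 (plus strand), upstream of a start site 41 bases before that gene's span.
Tle4: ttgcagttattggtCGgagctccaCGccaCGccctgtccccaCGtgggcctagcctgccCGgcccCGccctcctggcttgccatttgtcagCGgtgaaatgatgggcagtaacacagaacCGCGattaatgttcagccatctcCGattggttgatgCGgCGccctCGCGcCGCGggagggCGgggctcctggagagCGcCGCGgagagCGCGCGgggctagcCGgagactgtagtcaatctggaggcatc
Hs3st4: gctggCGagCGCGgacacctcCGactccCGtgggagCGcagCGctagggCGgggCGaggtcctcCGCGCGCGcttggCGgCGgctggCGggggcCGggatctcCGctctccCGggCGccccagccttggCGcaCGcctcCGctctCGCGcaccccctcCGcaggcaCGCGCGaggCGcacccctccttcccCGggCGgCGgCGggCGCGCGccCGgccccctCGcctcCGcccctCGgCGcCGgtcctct
The Tle4 window holds 24 CG dinucleotides and is 65.2% G or C, and 88.0% of 32851 mouse promoter windows of this length hold fewer CG. Tle4 has another RefSeq start site, at 14597213 inside the gene span. Its window, not printed here, holds 35 CG and is 70.8% G or C, with 97.0% of windows holding fewer. The Hs3st4 window holds 43 and is 82.0% G or C, with 99.3% of windows holding fewer. The median window holds 6 CG and is 52.4% G or C. The hexamer TGACCA, known as a binding motif of the related factor Bcl11a, was searched together with its reverse complement TGGTCA. Neither was present in these windows, and 11.4% of all windows hold at least 1 of them. No match says only that these letters are not in this window.

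In WT somata the markers stood at very different levels. Per kilobase of exon, Sla was by far the most abundant at 87.2 ± 9.45 CPM per kb (SD, n = 5), higher than 97.6% of the genes with at least 1 count in that group. Tle4 followed at 8.22 ± 2.77 CPM per kb, above 78.2% of those genes. Foxp2 (2.84 ± 0.715), Hs3st4 (2.54 ± 0.511), Syt6 (2.26 ± 1.39) and Zfpm2 (1.91 ± 1.02 CPM per kb) were close to one another, and neighbours in that order did not differ beyond their SD. Nxph4 was lowest at 0.460 ± 0.391 CPM per kb, from 1 to 56 counts per library. In somata labelled KO the order began with Sla (48.2 ± 6.64), Tle4 (28.9 ± 7.22) and Syt6 (7.91 ± 3.38 CPM per kb), and Nxph4 remained last at 0.660 ± 0.303. In growth cones of WT neurons Hs3st4 headed the list at 26.1 ± 9.44 CPM per kb, followed by Sla (19.2 ± 8.93) and Tle4 (13.01 ± 4.42), with the SD ranges of neighbours overlapping. Growth cones labelled KO had the same 3 genes in the same order, at 22.7 ± 7.66, 15.4 ± 6.13 and 14.3 ± 3.59 CPM per kb.

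**Figure D1:**
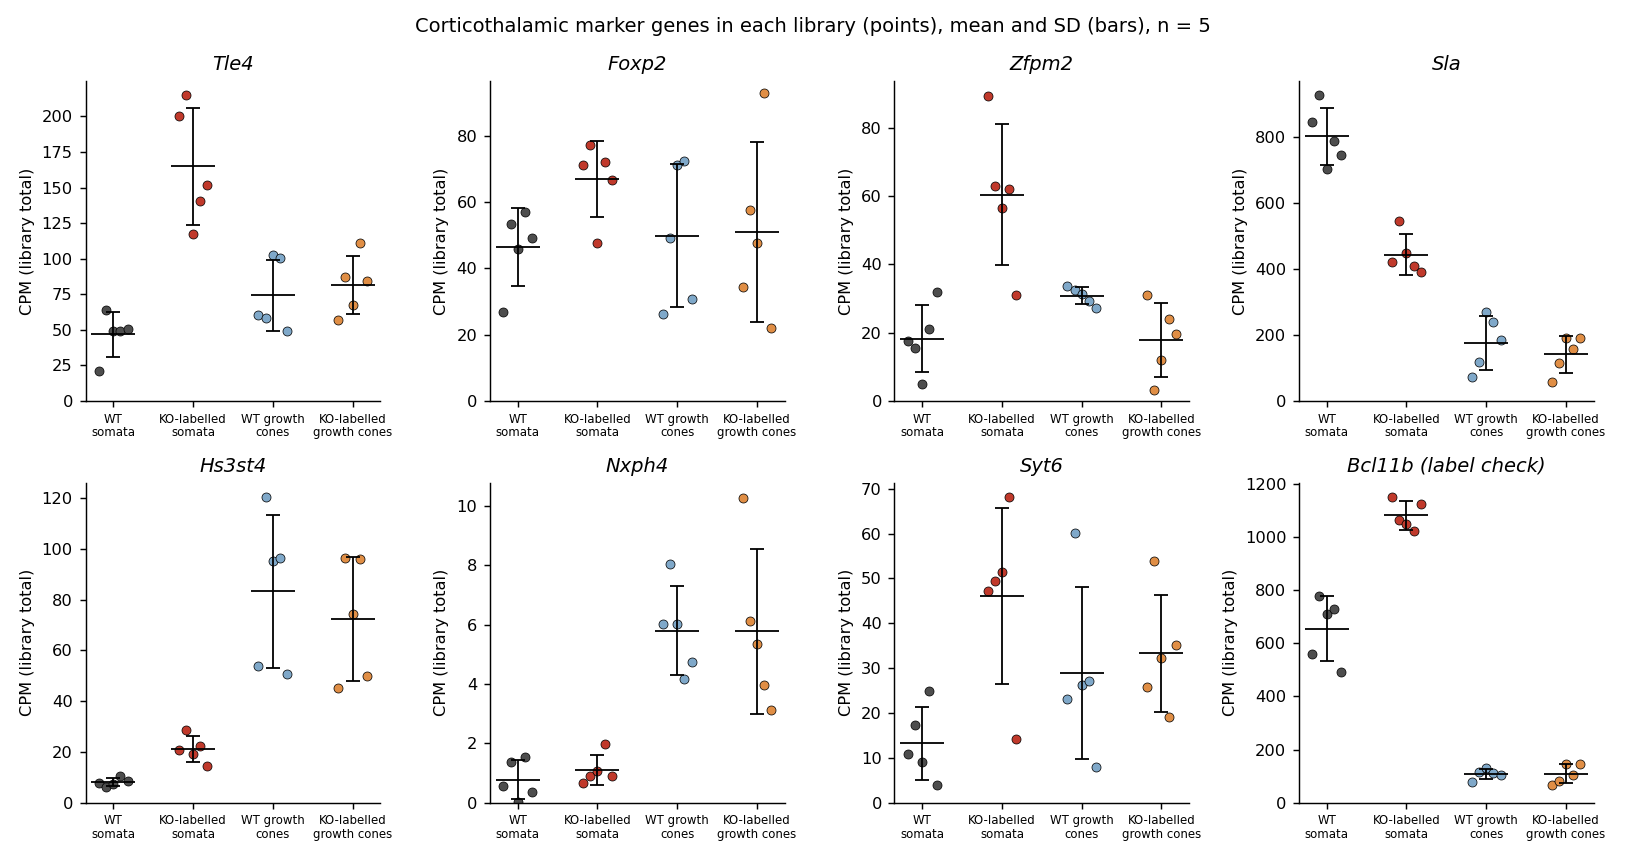
Level of each of the 7 corticothalamic markers, and of Bcl11b as a check of the labels, in every library. The vertical axes give CPM relative to the library total, points are single libraries, and bars give the mean and SD of 5 libraries per group. Tle4 in somata labelled KO (118 to 215 CPM) lies above all other libraries, Sla is highest in WT somata, lower in somata labelled KO and lowest in growth cones, and Hs3st4 is lowest in WT somata (6.08 to 10.5 CPM).

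The first comparison asked how the markers differed between somata labelled KO and WT somata. Tle4 and Hs3st4 rose and Sla fell, so 3 of the 7 members passed a false discovery rate (FDR) of 0.05 in edgeR's quasi-likelihood test, adjusted by Benjamini-Hochberg over all 14911 genes. The share of all genes that passed was 0.731% (0.416% higher and 0.315% lower). Of the 7 members, 6 had a positive log2 fold change and 6 had an unadjusted p under 0.05. Over all 14911 genes tested, 1278 had an unadjusted p under 0.05. The median log2 fold change of the members was 1.36, against -0.00 over all genes tested. The members include genes for which earlier results of these data were known, so this count is a description of them. Where soma groups are said below not to overlap, the share of all genes without overlap was not computed.

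Among the nuclear regulators, Tle4 showed the clearest separation. In WT somata 12, 14, 22, 25 and 26 the level of Tle4 was 21.0, 64.2, 49.0, 49.4 and 50.7 CPM. In somata 14, 15, 22, 25 and 26 labelled KO it was 200.0, 215, 118, 140.2 and 152 CPM. Every library labelled KO lay above every WT library, and WT soma 12 was the lowest of the 10. The means were 46.9 ± 15.8 and 165 ± 41.1 CPM (SD, n = 5), a log2 fold change of 1.80 ± 0.26 (SE, 3.49-fold, adjusted p = 0.00693, edgeR). Between libraries with the same experiment number the log2 difference was 1.25 to 1.63. It was positive in 4 of 4, as must hold for groups that do not overlap. Leaving out any 1 library kept the adjusted p at or below 0.0276.

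Zfpm2 had a difference of similar size that did not pass. It stood at 17.4, 15.3, 5.04, 21.2 and 32.0 CPM in WT somata and 89.3, 63.0, 56.6, 62.1 and 31.0 CPM in somata labelled KO, in the same order of experiment numbers. The groups overlapped because number 26 stood at nearly the same level in both. The log2 fold change was 1.72 ± 0.40 (adjusted p = 0.103, edgeR), and the same-number differences ran from -0.04 in number 26 to 3.36 in number 22. DESeq2's Wald test, an alternative that called 2.64% of genes, gave an adjusted p of 0.000758.

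Foxp2 differed least among the regulators. Foxp2 stood at 26.9, 53.3, 46.0, 56.96 and 49.1 CPM in WT somata and 71.2, 77.3, 47.8, 72.2 and 66.6 CPM in somata labelled KO. In each group 1 library stood low, number 12 in WT and number 22 under the KO label, and the groups overlapped. The log2 fold change was 0.51 ± 0.20 (adjusted p = 0.465, edgeR), and the same-number difference was positive in 4 of 4 pairs, from 0.06 to 0.44.

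Sla, the adaptor, was the only one of the 7 with a lower level in somata labelled KO. It stood at 844, 925, 703, 787 and 745 CPM in WT and 421, 545, 449, 409 and 391 CPM under the KO label. The lowest WT library was above the highest library labelled KO. The means were 801 ± 86.8 and 443 ± 61.0 CPM, a log2 fold change of -0.86 ± 0.10 (1.82-fold lower, adjusted p = 0.00264, edgeR). Without overlap Sla had to be lower in 4 of 4 same-number pairs, and it was. Leaving out any 1 library kept the adjusted p at or below 0.0115. A fit that took its spread from all 20 libraries kept the size, -0.86, but gave an adjusted p of 0.592. Sla is therefore the member whose direction goes against the other 6, while it is also the most abundant of them in these somata.

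Hs3st4, the heparan sulfate enzyme, was low in WT somata, at 7.89, 6.08, 7.39, 10.5 and 8.65 CPM. In somata labelled KO it stood at 20.6, 28.7, 19.0, 22.3 and 14.6 CPM, again with no overlap. The means were 8.10 ± 1.63 and 21.0 ± 5.15 CPM, a log2 fold change of 1.36 ± 0.25 (2.57-fold, adjusted p = 0.0268, edgeR). Same-number libraries differed by 0.72 to 1.68 (log2), higher in 4 of 4 as the lack of overlap requires. This call was the least firm of the 3. The adjusted p was 0.128 once the number of detected genes entered the fit and 0.240 with experiment number as a block. It rose above 0.05 in 8 of 10 fits that left out 1 library, to at most 0.0782 without soma 15 labelled KO. The overlapping transcript Gm27040 stood at 0.0764 CPM in WT somata and 1.14 CPM in somata labelled KO (log2 fold change 3.81, adjusted p = 0.196).

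Syt6 and Nxph4 did not pass in somata. Syt6, the synaptotagmin, was at 10.8, 17.3, 9.03, 24.9 and 3.96 CPM in WT somata and 47.3, 49.5, 51.5, 68.1 and 14.1 CPM in somata labelled KO. Number 26 was lowest in both groups, and only that library labelled KO overlapped the WT range. The log2 fold change was 1.79 ± 0.47 (adjusted p = 0.161, edgeR; 0.00398 by DESeq2), with higher values in 4 of 4 same-number pairs, from 1.43 to 2.45. Nxph4, the neurexophilin, was close to its detection limit at 0.0293 to 1.55 CPM in WT somata and 0.668 to 1.98 CPM in somata labelled KO. Its log2 fold change of 0.52 ± 0.80 had an adjusted p of 0.986, with 1 to 56 counts per library in WT and 26 to 84 under the KO label.

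**Figure D2:**
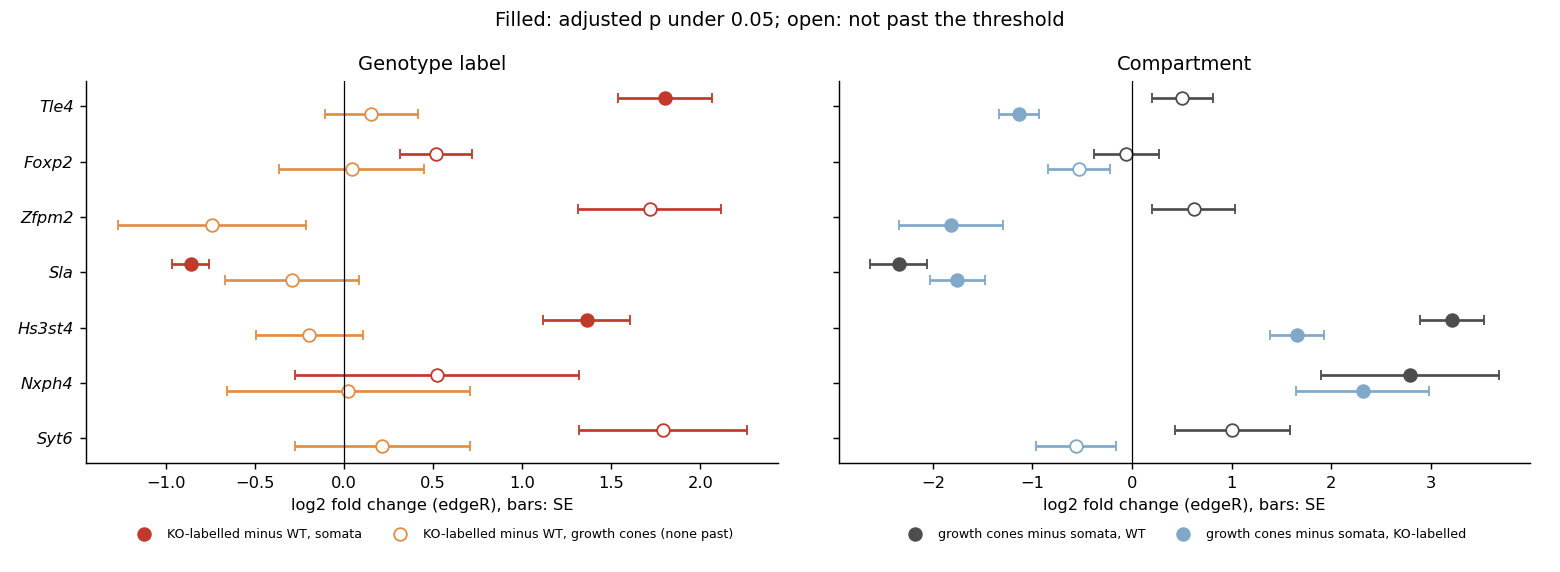
Log2 fold changes of the 7 markers with their SE from edgeR, for KO-labelled against WT libraries (left) and for growth cones against somata (right). Filled points passed an adjusted p of 0.05 and open points did not. In somata Tle4 (1.80) and Hs3st4 (1.36) lie to the right and Sla (-0.86) to the left, while all 7 growth cone points for the genotype label are open.

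Depth and the levels of some other genes moved with the genotype label in somata. Total counts ran higher in somata labelled KO (35243688 to 51205154) than in WT somata (18962308 to 36059112), in ranges that overlapped. The number of genes with at least 1 count was 18078 to 20084 against 17639 to 19380 in WT, also with overlap. With that number (log2) as a covariate, Tle4 had a log2 fold change of 1.60 (adjusted p = 0.0379) and Sla -0.93 (adjusted p = 0.00859). Markers of other cells gave summed levels that overlapped between the soma groups: 15.6 to 171 CPM in WT and 80.9 to 230.2 CPM under the KO label for 7 astrocyte genes, 57.4 to 100.3 and 63.5 to 92.5 CPM for 6 oligodendrocyte lineage genes, 1.78 to 62.9 and 2.92 to 60.4 CPM for 5 microglial genes, 2.90 to 19.9 and 0.284 to 50.3 CPM for 5 vessel and blood genes, and 17.8 to 59.0 and 11.4 to 52.4 CPM for 7 interneuron genes. None of the genes tested on those lists passed, where 0.731% of all genes did. A thalamic list of 5 genes summed to 97.4 to 197 CPM in WT somata and 59.3 to 90.0 CPM in somata labelled KO, mostly through Prkcd (128 and 68.6 CPM, adjusted p = 0.0561). Defining thalamic factors were near 0 there, with Tcf7l2 at 0.972 and 0.479 CPM and Gbx2 at 0.0174 and 0.0160 CPM. The 5 markers of cortical excitatory neurons summed to 1678 to 2057 and 1733 to 1987 CPM, but 2 of them passed in opposite directions. Neurod6, a neuronal transcription factor, was at 579 to 771 CPM in WT and 827 to 1040.0 CPM under the KO label (0.50 ± 0.10, adjusted p = 0.0491), and Crym was lower (-2.20, adjusted p = 0.006). The part of depth and of astrocyte genes in the result for the 7 markers was not tested beyond these values. In bulk libraries, a different share of cells that carry a marker cannot be told apart from a different amount of its RNA per cell.

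Lists of other projection neuron genes were read beside the 7 members. Of 11 further corticothalamic and layer 6 genes, 2 rose in somata labelled KO and 0 fell, where 0.731% of all genes passed. The median log2 fold change of this list was 0.67, with positive values in 10 of 11. Rprm, a cell cycle regulator that marks deep-layer neurons, was at 226 to 350 CPM in WT and 462 to 555 CPM under the KO label (0.83 ± 0.11, adjusted p = 0.00395). Wnt7b, a secreted Wnt ligand, was at 17.7 to 61.9 and 89.5 to 116 CPM (1.65 ± 0.31, adjusted p = 0.0338). Tbr1 and Sox5, transcription factors of layer 6 and deep layers, had values of 0.41 (adjusted p = 0.538) and 0.34 (adjusted p = 0.413) and did not pass. Of 6 subplate and layer 6b genes 4 could be tested and 0 passed, near the 0.731% of all genes (median 0.51). Nr4a2, the nuclear receptor of that list, had a value of 0.23 (adjusted p = 0.988). Markers of other cells had medians of 0.67 for astrocytes (positive in 6 of 6 tested genes), 0.82 for microglia (3 of 4) and 0.67 for vessels and blood (4 of 4). Medians were 0.06 for the oligodendrocyte lineage (3 of 5), 0.20 for interneurons (4 of 6) and -0.88 for the thalamic list (0 of 2). A positive median was thus not particular to corticothalamic and layer 6 genes.

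Subcerebral genes went in both directions. Of 12, 5 passed, where 0.731% of all genes did, and the median of the 12 was 0.04. Etv1 (1.73 ± 0.23, adjusted p = 0.00475), Tox (0.56 ± 0.09, adjusted p = 0.00861) and Diaph3 rose, and Pcp4 (-1.86 ± 0.23, adjusted p = 0.00367) and Crym (-2.20 ± 0.31, adjusted p = 0.006) fell. Crym encodes a thyroid hormone binding protein and Pcp4 a calmodulin regulator, both used as markers of corticospinal neurons. None of 12 callosal genes passed (median 0.23), a count near the share of all genes. Counts of this kind describe the lists, and no difference between lists was tested.

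**Figure D3:**
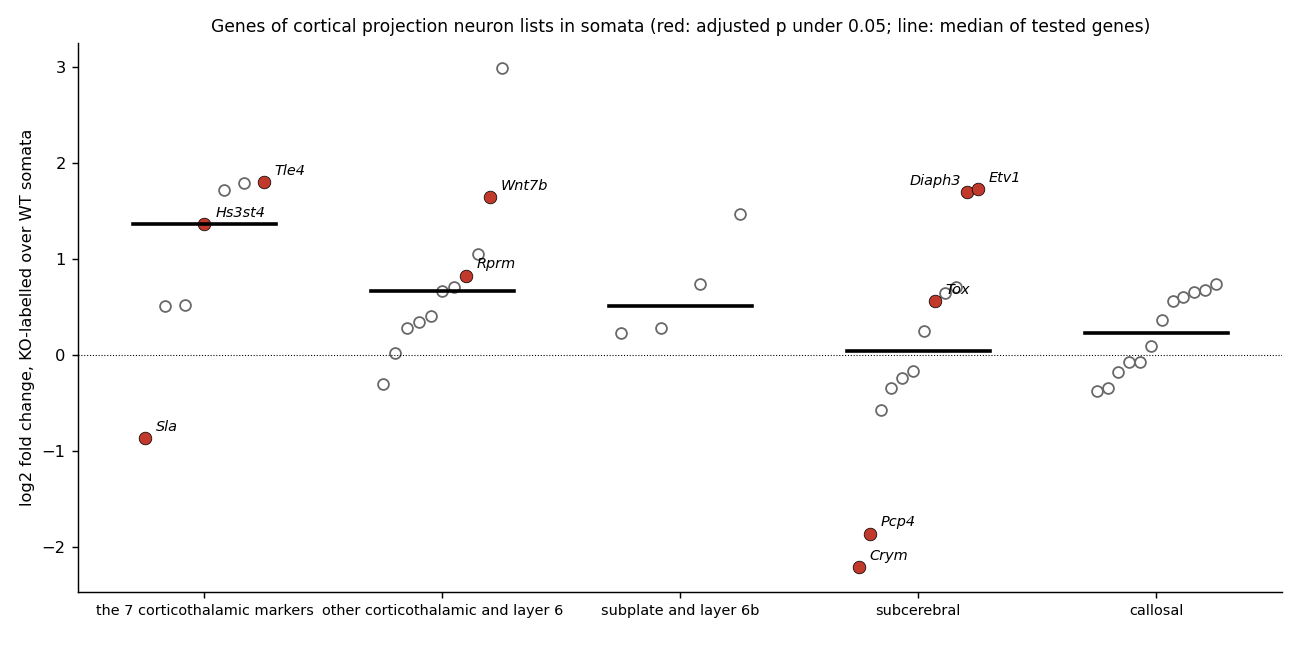
Log2 fold changes in somata (labelled KO over WT) for the 7 corticothalamic markers and for 4 lists of projection neuron genes, with 1 point per tested gene. Red points passed an adjusted p of 0.05 and carry their names, and lines give the median of the tested genes. The medians are 1.36 for the 7 markers, 0.67 for other corticothalamic and layer 6 genes, 0.51 for subplate, 0.04 for subcerebral and 0.23 for callosal genes.

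The same question was asked of growth cones, and 0 of the 7 members passed. Of all 15419 genes tested 0 passed as well (0%), with 329 genes and 0 members at an unadjusted p under 0.05. DESeq2 called 11 genes (0.0713%) and 0 members. The members' log2 fold changes were 0.15 ± 0.26 (SE) for Tle4, 0.04 ± 0.41 for Foxp2, -0.74 ± 0.53 for Zfpm2, -0.29 ± 0.38 for Sla, -0.20 ± 0.30 for Hs3st4, 0.02 ± 0.68 for Nxph4 and 0.21 ± 0.49 for Syt6. Each had an adjusted p of 0.999 in edgeR. Their median was 0.02, against 0.01 over all genes. The SEs leave room for sizeable differences in either direction, so the groups are not shown to be alike.

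Growth cone levels varied widely within a genotype. Tle4 was at 60.2, 58.4, 102, 100.5 and 49.3 CPM in WT growth cones 7 to 11 and at 57.1, 87.0, 67.6, 111 and 84.4 CPM in growth cones 7 to 11 labelled KO. Foxp2 was at 26.3, 49.2, 71.2, 72.3 and 30.7 CPM in WT and 34.5, 57.6, 47.8, 93.0 and 21.98 CPM under the KO label. Number 10 was the highest Foxp2 library in both groups. Zfpm2 had an even level in WT growth cones, from 27.3 to 33.7 CPM, and a scattered one under the KO label, at 31.1, 3.21, 11.9, 23.8 and 19.4 CPM. It was lower in 5 of 5 same-number pairs, with log2 differences from -3.15 to -0.12, and the means were 30.8 ± 2.55 and 17.9 ± 10.8 CPM. Number 7 was the one library labelled KO that reached the WT range.

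For the sulfotransferase and the adaptor, the libraries can be set side by side by number. Hs3st4 was at 53.7, 120.4, 95.3, 96.3 and 50.8 CPM in WT growth cones and at 45.2, 96.5, 74.4, 96.0 and 49.8 CPM under the KO label. Numbers 7 and 11 were low for Hs3st4 in both groups. Sla was at 72.4, 116, 268, 239 and 184 CPM in WT and 57.7, 113, 189, 157 and 190.1 CPM under the KO label. Number 7 was the lowest Sla library in both groups. Libraries of 1 number differed by 1.00-fold to 1.28-fold for Hs3st4, 1.17-fold to 1.49-fold for Foxp2, 1.03-fold to 1.53-fold for Sla, 1.05-fold to 1.71-fold for Tle4 and Nxph4, 1.11-fold to 4.45-fold for Syt6 and 1.08-fold to 10.1-fold for Zfpm2. Syt6 (7.91 to 60.1 CPM in WT, 19.2 to 53.9 CPM under the KO label) and Nxph4 (4.17 to 8.06 and 3.14 to 10.3 CPM) each had 1 range inside the other.

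**Figure D4:**
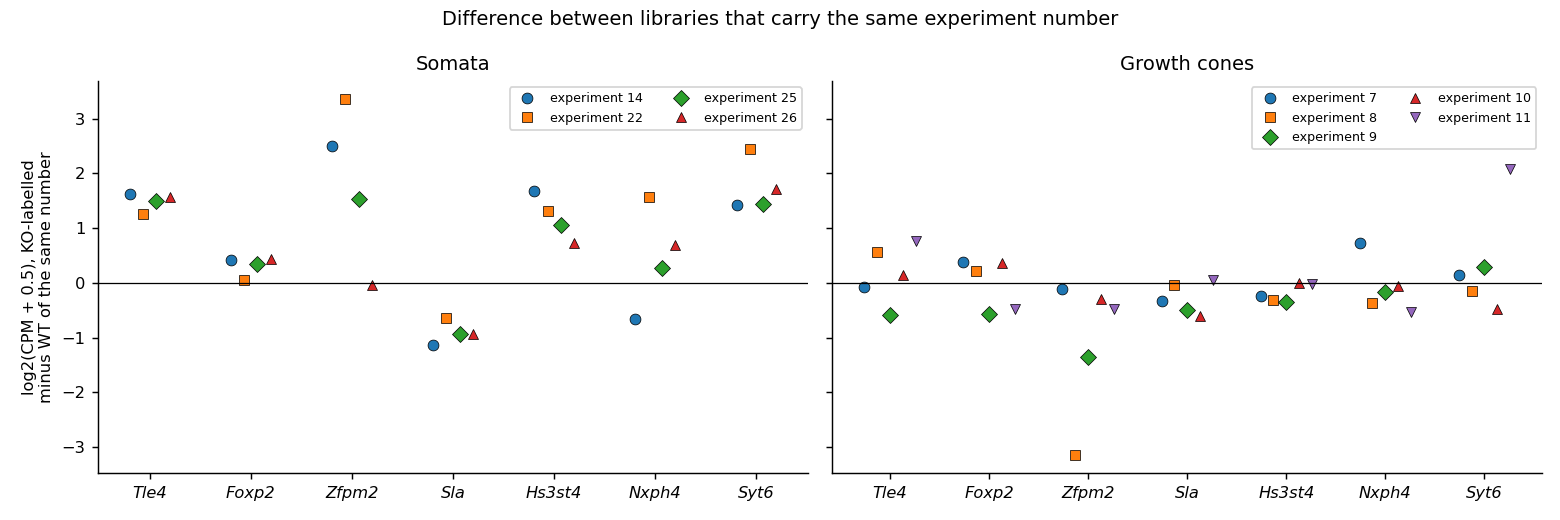
Difference in log2(CPM + 0.5) between the KO-labelled and the WT library that carry the same experiment number, for somata (4 numbers) and growth cones (5 numbers). In somata Tle4, Foxp2, Hs3st4 and Syt6 are above 0 in 4 of 4 numbers and Sla is below 0 in all 4. For Tle4, Hs3st4 and Sla this follows from soma groups that do not overlap. In growth cones Hs3st4 lies between -0.36 and -0.01, and Zfpm2 reaches -3.15 in number 8.

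The second question was how the markers were distributed between growth cones and somata of WT neurons. Hs3st4 and Nxph4 were higher and Sla was lower in growth cones, so 3 of 7 members passed, where 42.8% of all genes did (23.1% higher and 19.7% lower). Hs3st4 was at 83.3 ± 30.1 CPM in growth cones against 8.10 ± 1.63 in somata, a log2 fold change of 3.22 ± 0.32 (9.29-fold, adjusted p = 1.08e-05, edgeR). Nxph4 was at 5.80 ± 1.50 against 0.770 ± 0.655 CPM (2.79 ± 0.90, adjusted p = 0.0247). Its call was lost without WT soma 12 (adjusted p = 0.0543) or WT soma 26 (0.0582). Sla was at 176 ± 82.0 against 801 ± 86.8 CPM (-2.34 ± 0.29, adjusted p = 5.06e-05). Gm27040, which overlaps Hs3st4 on the other strand, was higher in growth cones too, at 9.17 ± 7.76 against 0.0764 ± 0.103 CPM (6.66 ± 1.30, adjusted p = 0.00144). Under the KO label Gm27040 was at 10.2 ± 6.29 against 1.14 ± 0.743 CPM (3.08 ± 0.81, adjusted p = 0.00999), and its part in the Hs3st4 counts was not tested. For Hs3st4, Nxph4 and Sla no WT growth cone library overlapped a WT soma library. The share of all genes without such overlap was not computed, so no weight is put on it.

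The remaining 4 members did not pass in WT. Tle4 had a log2 fold change of 0.50 ± 0.31 (adjusted p = 0.205), Zfpm2 0.62 ± 0.42 (0.253), Syt6 1.01 ± 0.58 (0.184) and Foxp2 -0.06 ± 0.32 (0.907). Transcripts of the 3 nuclear regulators were thus measured in growth cone libraries at levels that overlapped those of somata. The median of the members was 0.62, against 0.07 over all genes.

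Under the KO label 5 of 7 members passed between compartments, where 38.6% of all genes did (21.6% higher and 17.0% lower). Hs3st4 (1.66 ± 0.27, adjusted p = 0.000545) and Nxph4 (2.31 ± 0.67, adjusted p = 0.0165) were higher in growth cones. Sla (-1.75 ± 0.27, adjusted p = 0.000402), Tle4 (-1.13 ± 0.20, adjusted p = 0.000833) and Zfpm2 (-1.81 ± 0.52, adjusted p = 0.0167) were lower there. Syt6 (-0.56 ± 0.40, adjusted p = 0.296) and Foxp2 (-0.53 ± 0.31, adjusted p = 0.202) did not pass, though Foxp2 did without growth cone 10 labelled KO (-0.82, adjusted p = 0.0397). Tle4, Zfpm2 and Syt6 had a positive value in WT and a negative one under the KO label. Sla, Hs3st4 and Nxph4 passed in both with the same sign. The median of the members was -0.56, against 0.11 over all genes.

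Among the other corticothalamic and layer 6 genes, 2 of 11 passed between compartments in WT, where 42.8% of all genes did. Both were lower in growth cones: Sox5 (-3.23, adjusted p = 9.26e-06) and Rprm (-1.02, adjusted p = 0.000189). Under the KO label 5 of 11 passed, where 38.6% of all genes did. Of those 5, 4 were lower in growth cones: Sox5 (-4.37, adjusted p = 1.2e-07), Rprm (-2.39, adjusted p = 6.25e-07), Cdh18 (-5.74, adjusted p = 0.00751) and Wnt7b (-0.77, adjusted p = 0.0184). In WT, Sox5 stood at 262 ± 44.1 CPM in somata and at 31.0 ± 16.6 CPM in growth cones.

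The growth cone libraries also held genes of other cells and regions, and their part in the levels of the 7 markers was not tested. In WT, 6 of 7 astrocyte genes, 5 of 6 oligodendrocyte lineage genes, 7 of 7 interneuron genes, 2 of 4 testable vessel and blood genes and 5 of 5 testable hindbrain and spinal cord genes were higher in growth cones than in somata, against 23.1% of all genes. Of 4 testable microglial genes 0 passed in either direction. Astrocyte genes summed to 733 to 934 CPM in WT growth cones and 544 to 1033 CPM in those labelled KO, interneuron genes to 479 to 628 and 465 to 649.7 CPM, and hindbrain and spinal cord genes to 62.0 to 115 and 26.2 to 141 CPM. Oligodendrocyte lineage genes summed to 523 to 2232 and 516 to 1559 CPM, and vessel and blood genes to 253 to 487 and 221 to 539.7 CPM. Of 5 thalamic genes 4 were higher in WT growth cones and Prkcd was lower, with Tcf7l2 at 112 and 118 CPM and Gbx2 at 21.3 and 24.2 CPM in the WT and KO-labelled groups. Chat, a gene of cholinergic neurons such as motor neurons, was at 0 in WT growth cones and both soma groups but not in growth cones labelled KO. Chat did not pass the low-count filter between the growth cone groups, so that difference was not tested. Markers of cortical excitatory neurons summed to 854 to 1142 CPM in WT growth cones, below their soma range. Compartment, tissue of origin, RNA input and the set of experiment numbers all differ together between somata and growth cones and cannot be told apart. Per the labels' protocols, soma libraries were made from 1.8 to 3.1 ng of RNA and growth cone libraries from 0.19 to 3.1 ng.

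Whether the difference by genotype label itself differed between the 2 compartments was tested as the interaction over all 20 libraries, in which 0 of 7 members passed and 0.0397% of all 17645 genes did. It is given as the growth cone difference minus the soma difference. Zfpm2 had a value of -2.46 ± 0.68 (SE, adjusted p = 0.307, edgeR), Tle4 -1.67 ± 0.37 (0.152), Syt6 -1.61 ± 0.72 (0.672) and Hs3st4 -1.59 ± 0.39 (0.217), and these 4 had an unadjusted p under 0.05. Foxp2 (-0.51 ± 0.46), Nxph4 (-0.51 ± 1.04) and Sla (0.55 ± 0.41) did not reach that. Over all 17645 genes, 1231 had an unadjusted p under 0.05 in the edgeR test. DESeq2's Wald test, which called 1.55% of genes, passed 3 members: Tle4 (-1.66, adjusted p = 0.00133), Hs3st4 (-1.57, adjusted p = 0.00739) and Zfpm2 (-2.45, adjusted p = 0.0189). Of the other corticothalamic and layer 6 genes, Rprm passed (-1.42 ± 0.20, adjusted p = 0.0097, edgeR), but not with experiment number as a block (-1.47, adjusted p = 0.208).

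The share of each member in the summed CPM per kb of the 7 gives the make-up of the marker signal. Sla took 82.7% ± 3.60 (SD, n = 5) of it in WT somata, 47.2% ± 4.23 in somata labelled KO, 26.05% ± 9.71 in WT growth cones and 22.9% ± 8.46 in growth cones labelled KO. Tle4 took 7.79% ± 2.42, 28.0% ± 4.50, 17.97% ± 3.72 and 21.4% ± 2.78 in the same order. Hs3st4 took 2.44% ± 0.551, 6.36% ± 0.713, 35.4% ± 6.22 and 33.5% ± 6.04. A sum over the 7 genes therefore followed Sla in WT somata and several genes elsewhere. Before division by length it came to 819.5 to 1082 CPM in WT somata and 669.8 to 979.8 CPM in somata labelled KO, overlapping ranges although 6 of the 7 members had positive log2 fold changes.

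**Figure D5:**
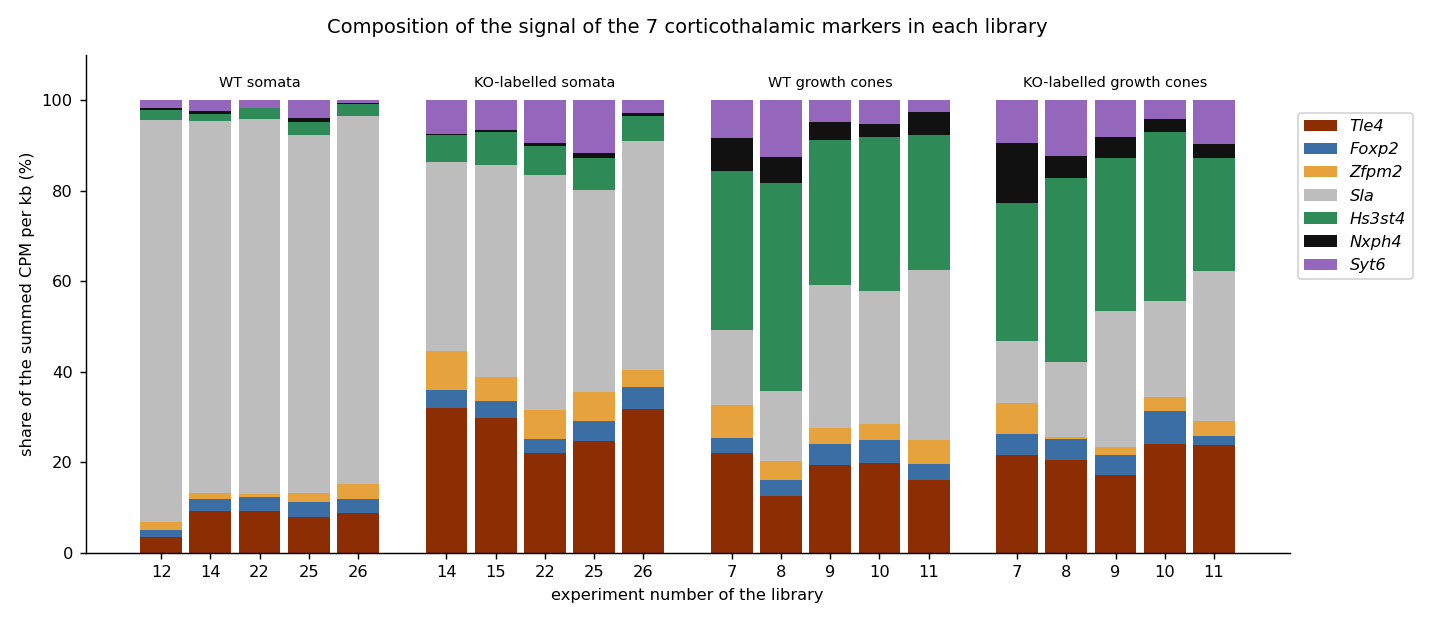
Share of each member in the summed CPM per kb of the 7 markers, in percent, with 1 stacked bar per library ordered by group and experiment number. Sla (grey) fills most of every WT soma bar (mean 82.7%), Tle4 (brown) widens to a mean of 28.0% in somata labelled KO, and Hs3st4 (green) is the widest on average in growth cones (35.4% in WT and 33.5% under the KO label).

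Genes with the most similar profile were sought over the 20 libraries by the root-mean-square (RMS) difference of gene-centred log2(CPM + 0.5), among the 11374 genes averaging 5 CPM or more. Points of 1 library share its depth and preparation, so these are descriptions. The 2 nearest genes were Wnt7b (0.49) and Epha4 (0.55) for Tle4, whose own profile has an RMS of 0.78. For Foxp2 (own RMS 0.56) they were Hs3st5 (0.33) and Scaf11 (0.34), and for Zfpm2 (1.08) Apcdd1 (0.79) and Dxo (0.79). For Sla (1.17) they were Aars (0.35) and Map1b (0.45), for Hs3st4 (1.38) Cdkn1a (0.46) and Fgfr1 (0.49), for Nxph4 (1.21) Bcl7c (0.42) and Gm9843 (0.44), and for Syt6 (1.03) Zfp811 (0.70) and Zfp579 (0.75).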

How the data were processed

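RNA from 20 libraries was converted with SMART-seq v4 and Nextera XT, per the labels' protocols. The authors deposited raw counts per gene in 1 table with the layout of featureCounts, per the file headers. The submitters' processing notes name Trimmomatic 0.39, STAR 2.7.1a, featureCounts 1.5.0 and the build GRCm39, but 97.9% of genes in the table match GENCODE M21 (GRCm38) exon for exon, which was used for symbols (55141 of 55487 genes). Strand and multimapping settings are not given in the sources used here. Each library was assigned by its title, 0 columns were left unmatched, and no replicate pair agreed within sampling noise (chi-square over degrees of freedom at least 52.7).

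Counts were tested with edgeR 4.0.16 in R 4.3.3: filterByExpr (minimum count 10), TMM scaling, quasi-likelihood F test, Benjamini-Hochberg adjustment over all genes tested, FDR 0.05. Each fit held the 2 groups compared, and the interaction all 20 libraries. SEs come from the F statistic. Fold changes are on the TMM scale, and CPM on library totals. The fit was also run on simulated counts, for the genotype comparisons in somata and in growth cones only. The outcome of that run is not reported here. Alternatives covered scaling, filtering, DESeq2 1.42.0, a detected-gene covariate, a fit of all libraries, blocking by experiment number and leaving out each library. The members and lists were chosen with earlier results of these data known. The genes named are the 7 members, Bcl11b, up to 4 called genes per list and comparison by lowest p, and the 2 nearest profiles per member. A few genes were named outside that rule after their values were seen: Tbr1, Sox5 and Nr4a2 in somata, Diaph3, Neurod6, Prkcd, Tcf7l2, Gbx2, Chat, and genes that overlap a member. RefSeq promoters on GRCm38.p6 were matched by symbol for 3 members.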

Additional observations from a re-analysis of the deposited data

How the results depend on the processing

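In somata 109 genes passed in the main test, against 393 by DESeq2's Wald test, 30 in a fit of all 20 libraries, and 67 to 107 when 1 library was left out (68 without WT soma 22, 67 without soma 22 labelled KO). Members called there were 3, against 5 by DESeq2 (Zfpm2 and Syt6 added), 1 in the fit of all 20 libraries (Tle4) and 2 to 3 without 1 library. In growth cones 0 genes passed, against 11 by DESeq2, 7 in the fit of all libraries and 0 without any 1 library. The interaction called 7 genes, against 273 by DESeq2, 4 with the detected-gene covariate and 5 to 12 without 1 library (12 without WT growth cone 7, 11 without growth cone 7 labelled KO), and 3 members by DESeq2 against 0. Between compartments leaving out 1 library gave 5776 to 6536 genes and 2 to 3 members in WT, and 5311 to 6449 genes and 5 to 6 members under the KO label. Without a low-count filter Nxph4 lost its compartment calls (adjusted p = 0.0571 in WT and 0.0529 under the KO label, edgeR).

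Experiment numbers were also fitted as a replicate block. Same-numbered libraries deviated together weakly, with correlations of 0.0102 to 0.134 over 4 soma pairs and 0.0268 to 0.105 over 5 growth cone pairs. Even so, 3 of 4 and 4 of 5 WT libraries correlated best with the KO-labelled library of their own number. The main fits left the number out because the labels do not say that it pairs libraries, and what it marks is not known. Whether libraries of 1 number share a batch was not tested, and the main p-values take no account of it. The block gave 34 genes in somata, with Tle4 at 1.48 (adjusted p = 0.0214), Sla at -0.93 (0.0304) and Hs3st4 at 1.22 (0.240), and 0 genes for the interaction, where Rprm had an adjusted p of 0.208.

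Signs turned only for values near 0. For the genotype label in growth cones Foxp2 was -0.012 and Nxph4 -0.0044 with the covariate, and Nxph4 -0.076 with the block. Without 1 library, Foxp2 ran from -0.28 to 0.23, Nxph4 from -0.33 to 0.18 and Syt6 from -0.027 to 0.68. For Foxp2 between WT compartments the value was 0.033 with DESeq2's size factors or its Wald test, 0.16 with upper-quartile scaling, and -0.22 to 0.13 without 1 library. Upper-quartile scaling moved the median of all genes between compartments from 0.07 to 0.28 in WT and from 0.11 to 0.31 under the KO label, and the split of calls from 3500 higher and 2976 lower to 3990 and 2347 in WT. Of the other values, 207 kept direction and call under the alternatives and 397 under leave-one-out. Causes were not tested. Nxph4 in somata rests on 1 to 84 counts per library.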

Other observations

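Relatives of the 7 markers in the same gene families were also read, as values. Of 22 relatives 17 could be tested in somata, and 2 passed, where 0.731% of all genes did. Both were lower in somata labelled KO. Foxp1, a forkhead factor related to Foxp2, was at 193 to 280 CPM in WT somata and 87.8 to 153 CPM in somata labelled KO (log2 fold change -0.92 ± 0.14 SE, adjusted p = 0.00917, edgeR). Foxp1 and Foxp2 thus had values of opposite sign, although Foxp2 (0.51) did not pass and the difference between them was not tested. Hs3st2, an enzyme of the same sulfotransferase family as Hs3st4, was at 137 to 194 CPM in WT somata and 108 to 120 CPM in somata labelled KO (-0.52 ± 0.10, adjusted p = 0.031), while Hs3st4 rose.

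The 2 sulfotransferases also stood apart between compartments. In WT, Hs3st2 was lower in growth cones (-2.07 ± 0.24, adjusted p = 3.42e-05), and Hs3st4 (3.22) and Hs3st1 (2.81 ± 0.51, adjusted p = 0.000846) were higher there. Per library, Hs3st2 was at 22.8 to 61.5 CPM and Hs3st1 at 19.7 to 92.2 CPM in WT growth cones. Aes, the short Groucho-family member also called Tle5, was at 206 to 387 CPM in WT somata and 2562 to 3324 CPM in WT growth cones (3.16 ± 0.17, adjusted p = 1.37e-07), whereas Tle4 did not pass (0.50). Tle6 passed as lower in WT growth cones (adjusted p = 0.000607), from 0.514 to 3.02 CPM in somata to at most 0.0704 CPM. In growth cones 0 of 15 testable relatives passed between the genotype labels, where 0% of all genes did. Sla2, the relative of Sla, was at 0 in every group.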
